A study of Arabidopsis thaliana with 6 samples.

Results

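The ethylene receptors and the core of the ethylene pathway were examined in inflorescence apices of Arabidopsis thaliana in which the flower and meristem regulator APETALA2 had been induced. The members are 10 loci taken by name from the deposited count table, out of 28775 loci in all: the receptor genes ETR1 (AT1G66340), ERS1 (AT2G40940), ETR2 (AT3G23150), ERS2 (AT1G04310) and EIN4 (AT3G04580), the signalling genes CTR1 (AT5G03730), EIN2 (AT5G03280) and EIN3 (AT3G20770), and the F-box genes EBF1 (AT2G25490) and EBF2 (AT5G25350). All 10 passed the filter on low counts. The rule that names them uses no measured value, though it was written with earlier results of these data known.

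Ethylene is a gaseous plant hormone known for its roles in senescence, ripening, stress and growth. Its receptors sit in the endoplasmic reticulum membrane and act as brakes: without ethylene they keep the Raf-like kinase CTR1 active, and CTR1 phosphorylates the membrane protein EIN2 and holds it inactive. With ethylene, a part of EIN2 is released, translation of the EBF1 and EBF2 messages is reduced, and the transcription factors EIN3 and EIL1, which EBF1 and EBF2 otherwise send to the proteasome, build up. Much of this control acts on proteins, which RNA counts do not measure, but ERS1, ETR2, ERS2 and EBF2 are also known as transcripts that ethylene induces.

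The samples were 3 mock-treated and 3 dexamethasone-treated inflorescence apices, and in both groups the labels give 2 weeks after bolting as the stage. Dexamethasone, a synthetic glucocorticoid, allows the expression of AP2m3, a form of AP2 that escapes the microRNA miR172, and the apices were taken 6 to 8 h later without the flower primordia that could be seen. The sources used here do not give the promoter or line behind the induction, the genetic background or the content of the mock solution. There were no dexamethasone-treated plants without the transgene, so effects of dexamethasone itself and of AP2m3 cannot be told apart. The libraries are called CT1, CT2 and CT3 (mock) and Dx4, Dx5 and Dx6 (dexamethasone), and values are given in that order.

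The libraries held 1633571 to 2196781 counts. AP2 stood at 55.7, 60.5 and 78.1 CPM (library-scaled counts) in the mock libraries and at 1100.4, 1187 and 1009 CPM with dexamethasone (log2 fold change 4.08 ± 0.15 SE, edgeR adjusted p = 2.8e-13), so the labels and the induction go together. Reads of the transgene and of the resident gene are not told apart. Of 7 shoot meristem markers, STM, KNAT1, KNAT2, CLV1 and TFL1 were measured in all libraries, WUS had 7 to 11 counts, and CLV3 had no count in any library, which allows up to 3 counts (1.38 to 1.88 CPM). The 7 summed to 228 to 284 CPM in mock and 283 to 305 CPM with dexamethasone. CLV1 was higher (log2 fold change 0.72 ± 0.14, edgeR adjusted p = 0.0018) and TFL1 lower (-1.59 ± 0.50, adjusted p = 0.0424). With 7, 8 and 6 counts in the dexamethasone libraries, TFL1 passed the filter on low counts only through its mock libraries. There CT1 stood at 21.9 CPM, against 7.33 and 6.05 CPM in CT2 and CT3. The 7 markers of flower primordia summed to 910 to 1039 CPM in mock and 753 to 771 CPM with dexamethasone, but not all moved alike: AP1, SEP3 and LFY fell (log2 fold changes -0.92, -0.97 and -1.07), while AP3, AG, CRC and PI were not called (0.32, -0.15, -0.42 and 0.04). Counts of 8 dawn-phased clock genes summed to 73.5 to 165 CPM in mock and 41.4 to 61.9 CPM with dexamethasone, and those of 8 touch and wound genes to 157 to 183 and 265 to 297 CPM. Of the clock genes, LNK1 was called lower, LNK2 and RVE1 were not called, and the others were too low to test. Of the touch and wound genes, TCH2, TCH3, JAZ1 and JAZ5 were called higher. TCH4 and JAZ10 were not called, and ZAT10 and WRKY40 were too low to test. The part of these differences in any result below was not tested.

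None of the 10 genes differed between the groups past the threshold. The edgeR quasi-likelihood test with Benjamini-Hochberg adjustment over 15857 genes called 0 of 10 at an adjusted p under 0.05, where it called 13.9% of all genes tested (5.86% higher and 8.02% lower with dexamethasone). At an unadjusted p under 0.05 it gave 1 of 10, ERS1, against 26.7% of all genes. The DESeq2 Wald test and limma-voom also called 0 of 10, against 8.6% of all genes (3.46% higher, 5.14% lower) and 12.9% (5.68% higher, 7.27% lower). The members split evenly in sign, 5 above and 5 below 0, with a median log2 fold change of -0.02 beside 0.00 over all genes tested. All 10 intervals (95%) lay within a 2-fold change in either direction and 9 of them within a 1.6-fold change, with ETR2, the gene with the fewest counts, as the exception. Smaller changes are therefore not excluded by these libraries. In bulk tissue a change in the share of cells of a type and a change in RNA per cell cannot be told apart.

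**Figure D1:**
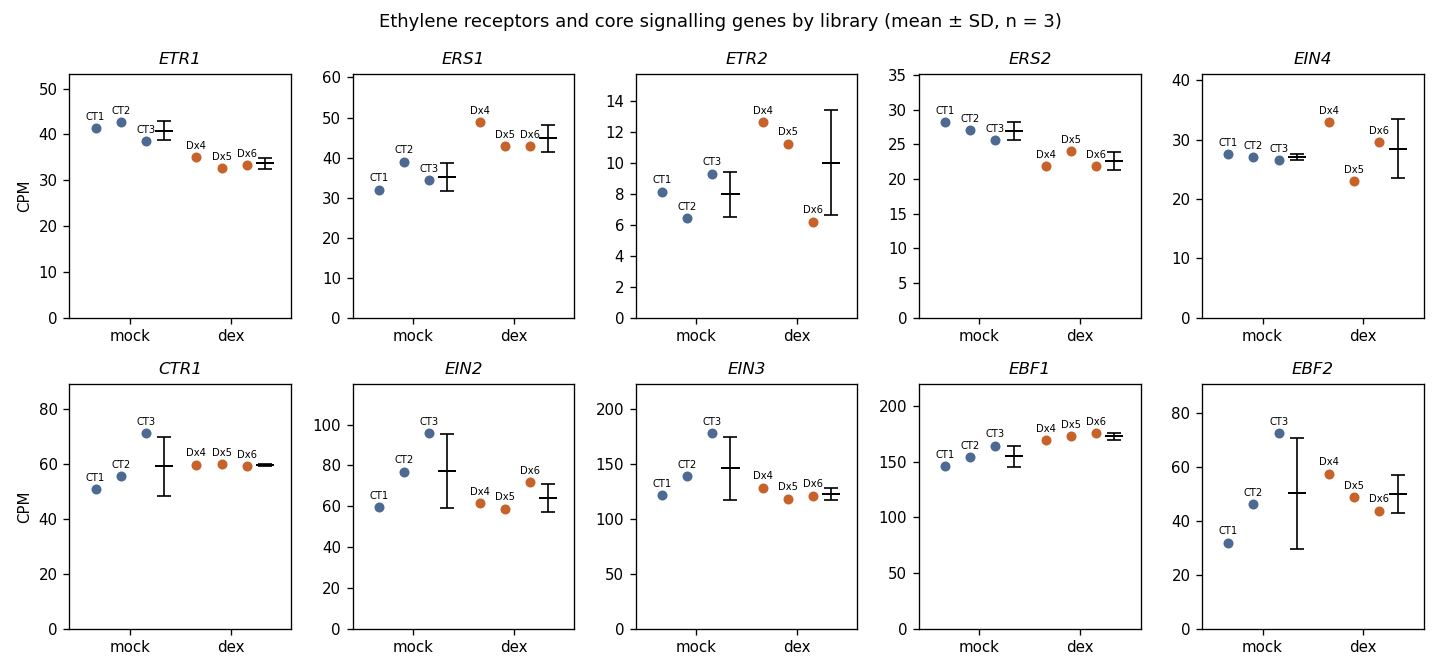
Library-scaled counts (CPM, y axis, linear from 0) of the 10 genes in each mock library (blue) and each dexamethasone library (orange), with mean and SD of 3 libraries as black bars. The groups do not overlap for ETR1, ERS1, ERS2 and EBF1, and the mock libraries are widely spread for EBF2, EIN2 and EIN3.

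The receptor ETR1, a histidine kinase of subfamily 1, had 41.3, 42.6 and 38.6 CPM in the mock libraries and 35.1, 32.6 and 33.3 CPM with dexamethasone. All dexamethasone libraries lay below all mock libraries, but the difference did not pass the test (log2 fold change -0.28 ± 0.15 SE, interval -0.60 to 0.04, edgeR adjusted p = 0.257). ERS1, the other member of subfamily 1, which lacks the receiver domain of ETR1, went the opposite way, at 31.9, 39.0 and 34.4 CPM in mock and 48.8, 42.8 and 42.9 CPM with dexamethasone. Here all dexamethasone libraries lay above all mock libraries, with a log2 fold change of 0.34 ± 0.15 (interval 0.02 to 0.66). This was the smallest p of the 10 genes, 0.0383 before and 0.159 after the edgeR adjustment over all genes.

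Subfamily 2 receptors have diverged kinase domains. ERS2 stood at 28.2, 27.0 and 25.6 CPM in mock and 21.9, 24.1 and 21.9 CPM with dexamethasone, again without overlap of the groups (log2 fold change -0.25 ± 0.18, edgeR adjusted p = 0.41). EIN4 overlapped between groups: its mock libraries were nearly equal, at 27.6, 27.0 and 26.5 CPM, and its dexamethasone libraries spread around them, at 32.9, 23.0 and 29.5 CPM (0.08 ± 0.18, adjusted p = 0.838). ETR2 was the lowest of the receptors, with 13 to 23 counts per library, and had 8.14, 6.42 and 9.30 CPM in mock and 12.6, 11.2 and 6.19 CPM with dexamethasone. Dx6 was lower than any mock library while Dx4 and Dx5 were above all of them, and the interval of the log2 fold change, -0.36 to 0.99, was the widest of the 10 genes.

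The members whose groups did not overlap were 4 of 10 (ETR1, ERS2, ERS1 and EBF1). Over all genes tested the share was 31%, 15.1% with dexamethasone higher and 15.9% with it lower, so the members' count was near the background.

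The summed receptor level differed between the groups by less than its SD. ETR1 and ERS2 held a smaller and ERS1 a larger part of it in every dexamethasone library than in any mock library. Summed per kilobase of exon, so that genes of different length can be added, the 5 receptors gave 50.1 ± 1.63 CPM per kilobase in mock and 51.0 ± 3.44 with dexamethasone (mean ± SD, n = 3 each), from 219 to 310 receptor counts in a library. ETR1 made up 29.4 ± 0.75% of these in mock and 23.9 ± 0.79% with dexamethasone, and ERS1 28.8 ± 2.23% and 36.2 ± 0.32%. ERS2 made up 20.7 ± 0.99% in mock and 17.2 ± 1.77% with dexamethasone. Only the shares of the subfamilies were planned, so those of single receptors were chosen after the values were seen. They largely restate the single values above, none of which passed the test. The share of subfamily 1 as a whole was 58.2 ± 2.08% in mock and 60.1 ± 0.57% with dexamethasone, a difference smaller than the mock SD.

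The ratio of ETR1 to ERS1 per kilobase was 1.13, 0.958 and 0.982 in the mock libraries and 0.629, 0.667 and 0.681 with dexamethasone. The difference of the mean log2 ratio was -0.63, and it lay between -0.68 and -0.56 with any 1 of the 6 libraries left out. All 3 dexamethasone libraries were below all 3 mock libraries, which gave an exact two-sided permutation p of 0.1, the smallest that 3 against 3 libraries allow. Adjusted over the 11 ratios computed (10 receptor pairs, and EIL1 to EIN3) it was 0.22, which fails the threshold. These ratios were chosen after the values were seen. Of the 10 receptor pairs, 4 did not overlap between groups: ETR1 to ERS1, ETR1 to EIN4, ERS1 to ERS2 and ERS1 to EIN4. Since 7 of the 10 pairs hold ETR1 or ERS1, whose own groups did not overlap, this count largely restates their single values.

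**Figure D2:**
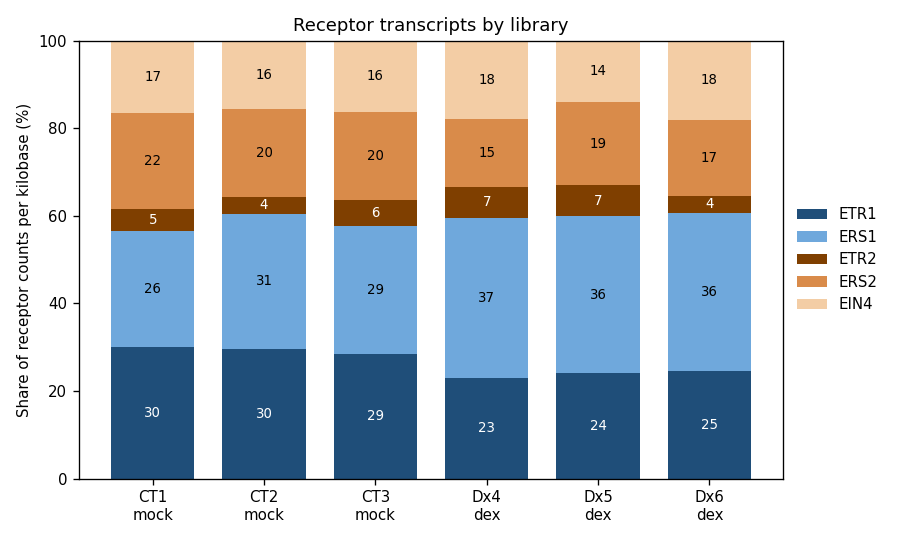
Share of each receptor in the receptor counts per kilobase (%, y axis) in every library, rounded to whole percent inside the bars; subfamily 1 is blue, subfamily 2 brown. The ETR1 and ERS2 bands are narrower and the ERS1 band wider in the 3 dexamethasone libraries, while the border between the subfamilies stays near 60%.

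The start of ERS1 is shown because it was the 1 member of 10 that matched an EIN3-type motif, a count near the background. Windows from 250 bases before to 50 bases after the annotated start were read from RefSeq's annotation of assembly TAIR10.1, and ATGTANCT and ATGAANCT, forms of the sequence that EIN3-type factors are known to bind, were searched on both strands. ATGTANCT occurred in 4.14% of 26709 promoters of protein-coding genes and in none of the 10 members. ATGAANCT occurred in 6.32% of promoters and in 1 of the 10 members, ERS1, where a match on each strand overlapped the other at positions -76 to -63 from the start. The matches are in capitals, with the sequence on the strand of the gene:
ERS1: gaaccctcAGATTCATGAACCTgagctcac
TTTGTT, a sequence that AP2 has been described to bind, occurred in 61.6% of promoters and in 6 of the 10 members (ETR1, ETR2, EIN4, CTR1, EIN3 and EBF1), a share near the background. A match is a description of letters, and no binding was measured.

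CTR1 had the fold change nearest to 0 of the 10 genes. It stood at 50.7, 55.5 and 71.2 CPM in mock and at 59.7, 59.9 and 59.1 CPM with dexamethasone, where the 3 libraries were almost equal and lay inside the mock range (log2 fold change 0.00 ± 0.15, interval -0.31 to 0.31). EIN2 stood at 59.5, 77.0 and 95.8 CPM in mock and 61.4, 58.9 and 71.9 CPM with dexamethasone (-0.28 ± 0.16, edgeR adjusted p = 0.275). EIN3, the transcription factor at the end of the chain, stood at 122, 138 and 178 CPM in mock and 128, 118 and 121 CPM with dexamethasone (-0.26 ± 0.14, adjusted p = 0.257). For EIN2 and EIN3 the groups overlapped, because CT1 was as low as the dexamethasone libraries.

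EBF1 stood at 146, 154 and 165 CPM in mock and 169, 173 and 176 CPM with dexamethasone, without overlap and with a log2 fold change of 0.16 ± 0.12 (adjusted p = 0.446). EBF2, whose message is known as a feedback target of EIN3, was the most variable member in mock, at 31.9, 46.3 and 72.5 CPM, while the dexamethasone libraries lay inside that range at 57.5, 48.7 and 43.8 CPM. Its log2 fold change was -0.04 ± 0.24 (interval -0.55 to 0.48, edgeR adjusted p = 0.95). Of the EBF2 exon sequence, 16.9% also lies in exons of another annotated gene on either strand, so some of its reads may be uncertain; for the other 9 members this share was at most 0.809%.

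The mock libraries differed among themselves in the genes downstream of the receptors. All 5 of CTR1, EIN2, EIN3, EBF1 and EBF2 were lowest in CT1 and highest in CT3, with CT3 above CT1 by 1.40, 1.61, 1.46, 1.13 and 2.27 times. The receptors varied in mock as well, with a highest library 1.10 (ETR1), 1.22 (ERS1), 1.45 (ETR2), 1.10 (ERS2) and 1.04 (EIN4) times the lowest. None of the 5 receptors had the order of CT1 lowest and CT3 highest. Outside the pathway, AP2 (55.7, 60.5 and 78.1 CPM) and SEP3 (160, 215 and 238 CPM) had the same order. STM (66.4, 68.3 and 61.4 CPM) did not. The share of all genes with this order was not computed, so the count is no result about these genes. In the same libraries the dawn-phased clock genes summed to 165 CPM in CT1, 121 CPM in CT2 and 73.5 CPM in CT3, and their part in this spread was not tested. The spread set the estimates: without CT3 the log2 fold change of EBF2 was 0.32 (adjusted p = 0.174), that of EIN2 -0.11 (0.647) and that of EIN3 -0.09 (0.596), and without CT1 those of EIN2 and EIN3 were -0.43 and -0.37 (edgeR adjusted p = 0.0569 and 0.0745).

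Levels of different genes were compared per kilobase of exon. In mock, EIN3 (59.6 ± 11.8 CPM per kilobase, mean ± SD, n = 3) and EBF1 (50.7 ± 3.07) were highest and overlapped each other. They were followed, at a distance, by CTR1 (18.2 ± 3.29), EBF2 (17.2 ± 7.03), EIN2 (16.0 ± 3.74), ETR1 (14.7 ± 0.74) and ERS1 (14.5 ± 1.47), in which each gene overlapped the next. ERS2 (10.4 ± 0.50), EIN4 (8.11 ± 0.16) and ETR2 (2.46 ± 0.45) came last and were each separated from their neighbours. With dexamethasone the order had EBF1 (56.6 ± 1.07) above EIN3 (50.04 ± 2.10) without overlap, and ERS1 (18.5 ± 1.41) beside CTR1 (18.3 ± 0.14). ETR1 (12.1 ± 0.45) then followed EIN2 (13.2 ± 1.43), which it overlapped, and ETR2 (3.10 ± 1.04) remained the lowest.

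**Figure D3:**
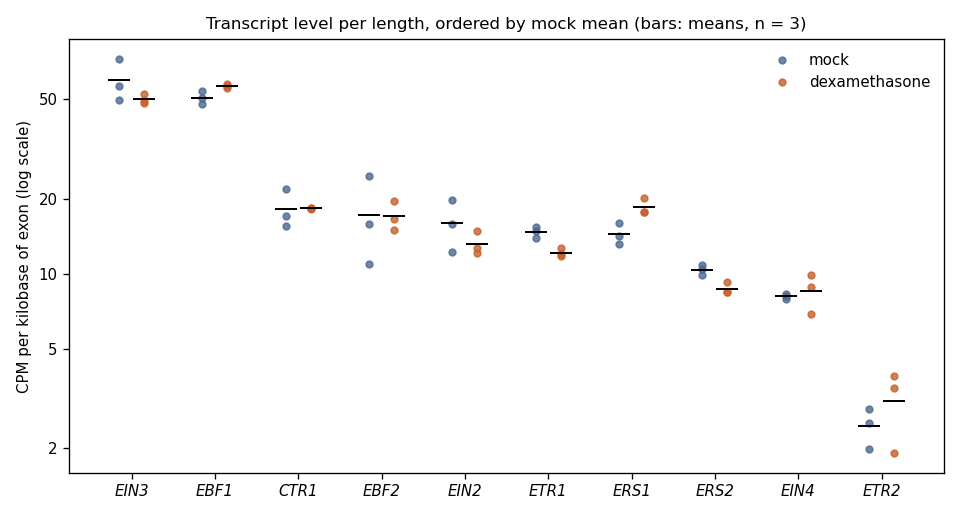
Transcript level of the 10 genes per kilobase of exon (CPM per kilobase, log axis) in mock (blue) and dexamethasone (orange), one point per library and a bar at each mean. EIN3 and EBF1 lie near 50 CPM per kilobase or above, ETR2 below 4, and the remaining genes between 6.90 and 24.8.

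EIL1, the closest relative of EIN3 and a partner in most of its known roles, fell where EIN3 did not pass the test. It stood at 15.7, 23.8 and 20.9 CPM in mock and 8.77, 7.49 and 7.15 CPM with dexamethasone. All dexamethasone libraries were below all mock libraries, a 2.61-fold lower level (log2 fold change -1.39 ± 0.26, edgeR adjusted p = 0.00107). The call held with each library left out (adjusted p up to 0.0147, without CT2). The ratio of EIL1 to EIN3 per kilobase was 0.134, 0.178 and 0.122 in mock and 0.0708, 0.0656 and 0.0612 with dexamethasone. The difference of the mean log2 ratio was -1.12, lower in 3 of 3 dexamethasone libraries, with an exact two-sided permutation p of 0.1, the smallest possible here (0.22 adjusted over 11 ratios). EIL3, a relative known for sulphur responses in Arabidopsis, had a log2 fold change of 0.01 ± 0.19, and EIL2 had no count in any library.

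Beyond the members, 8 lists of 75 pathway genes were examined, of which 39 passed the filter on low counts. The edgeR test called 2 higher and 3 lower, and the other 34 were not called, a share near the background of 13.9% of all genes tested (5.86% higher, 8.02% lower). The median log2 fold change of the 39 was 0.01, beside 0.00 over all genes tested. The count of called genes rested on single libraries: it was 4 without CT1, 12 without CT3, 3 without Dx4, and 2 without CT2, Dx5 or Dx6. The 7 added without CT3 were SAM1, ERF12, PAB4, RAP2.3, ETP1, EOL1 and UPF1.

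**Figure D4:**
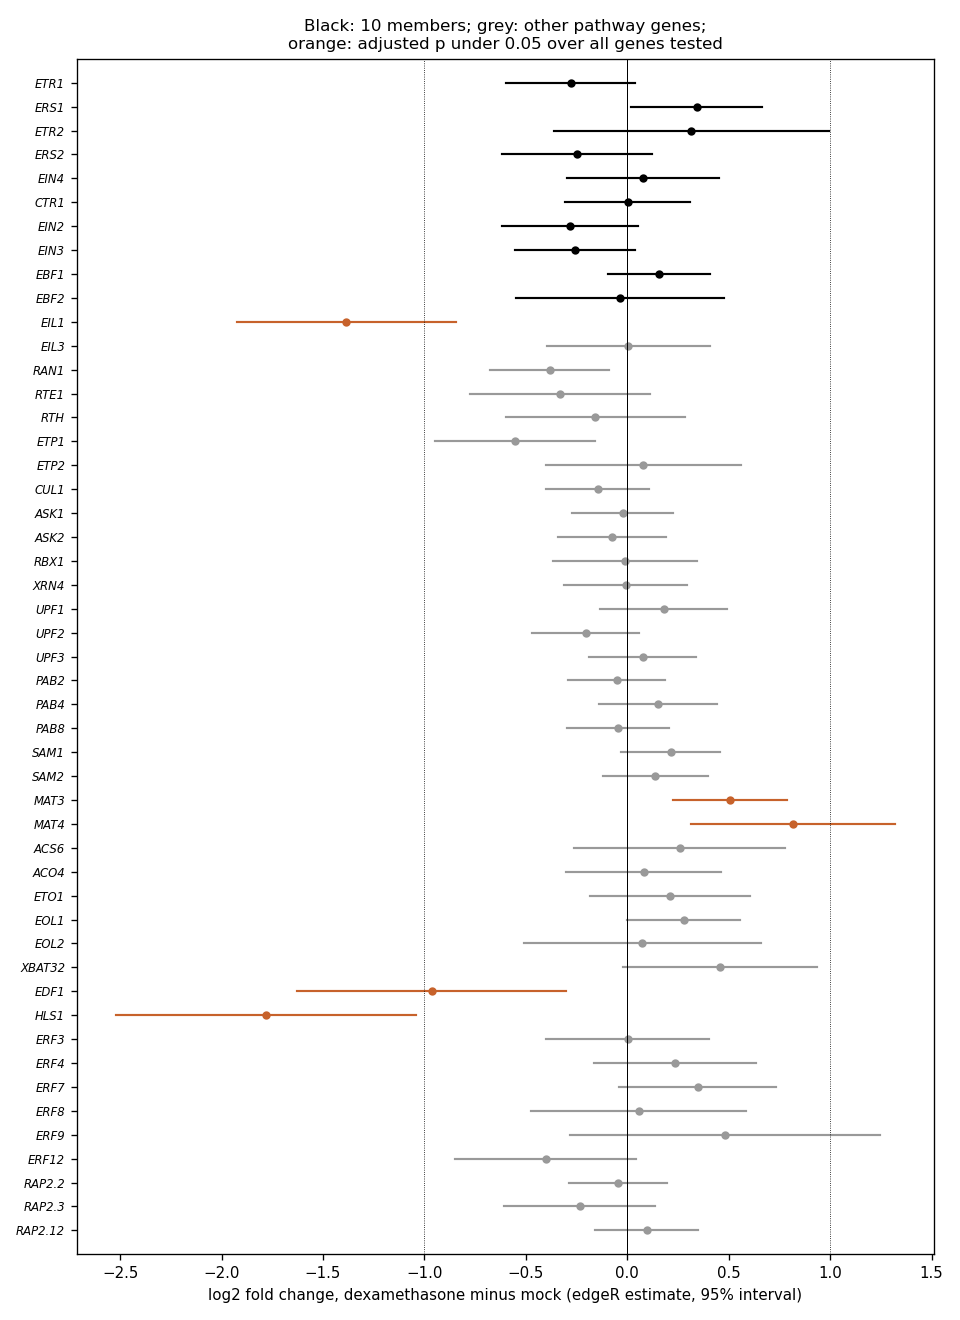
Log2 fold change of dexamethasone against mock (x axis, edgeR estimate as a point, 95% interval as a line) for the 10 members (black) and the 39 other pathway genes tested (grey), with those past the threshold in orange; dotted lines mark a 2-fold change. All members lie inside the dotted lines, and EIL1 and HLS1 have the lowest estimates.

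Ethylene is made from S-adenosylmethionine by ACC synthases (ACS) and ACC oxidases (ACO). Of the 17 genes of this list reported here, 6 were tested, and 2 were called higher, where 5.86% of all genes tested were called higher. With the other 11 not tested, this says nothing of the list as a whole. ACO4 had a log2 fold change of 0.08 ± 0.18.

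MAT3 and MAT4, which make S-adenosylmethionine, a methyl donor used far beyond ethylene synthesis, were higher with dexamethasone. MAT3 went from 206, 194 and 273 to 303, 308 and 345 CPM (0.51 ± 0.14, edgeR adjusted p = 0.0157), and MAT4 from 272, 307 and 540 to 636, 624 and 715 CPM (0.82 ± 0.22, adjusted p = 0.0391), with CT3 the closest mock library in both. The MAT3 call was lost without CT2, Dx4, Dx5 or Dx6 (adjusted p up to 0.128, without Dx6), with log2 fold changes of 0.41 to 0.53 in these fits. That of MAT4 was lost without any library other than CT3 (up to 0.0974, without CT2; log2 fold changes 0.63 to 0.85), and DESeq2's Wald test did not make it either (0.0919). MAT4 shares 22.8% of its exon sequence with other annotated genes. Of the 9 ACS genes, ACS6, named here after its values were seen, passed the filter (0.26 ± 0.25), and the other 8 had at most 2 counts in a library.

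Of 10 EIN3 targets and ethylene response markers, only HLS1 and EDF1 were tested, and both fell, where 8.02% of all genes tested were called lower. With the 8 others too low to test, this says nothing of the list as a whole. HLS1, needed for the apical hook of seedlings, stood at 13.8, 12.8 and 9.77 CPM in mock and 4.38, 2.14 and 3.81 CPM with dexamethasone (log2 fold change -1.78 ± 0.35, edgeR adjusted p = 0.00183). With 8, 4 and 8 counts in the dexamethasone libraries, it passed the filter only through its mock libraries, where it was high, so its fall is no independent sign for the list. EDF1, also called TEM1 and known as a repressor of flowering, stood at 9.39, 15.1 and 13.5 CPM in mock and 9.32, 4.82 and 5.72 CPM with dexamethasone (-0.96 ± 0.32, edgeR adjusted p = 0.0478). CT1 and Dx4 were almost equal. With 17, 9 and 12 counts in the dexamethasone libraries, EDF1 also needed its mock libraries to pass the filter. The EDF1 call was lost without CT2, Dx5 or Dx6 (adjusted p up to 0.208, without Dx5; log2 fold changes -0.87 to -0.79), with library size scaling, with limma-voom and with the DESeq2 Wald test. The widely used markers ERF1, ORA59, PR3, ESE1 and PDF1.2 had at most 2 counts in a library and could not be compared at this depth.

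**Figure D5:**
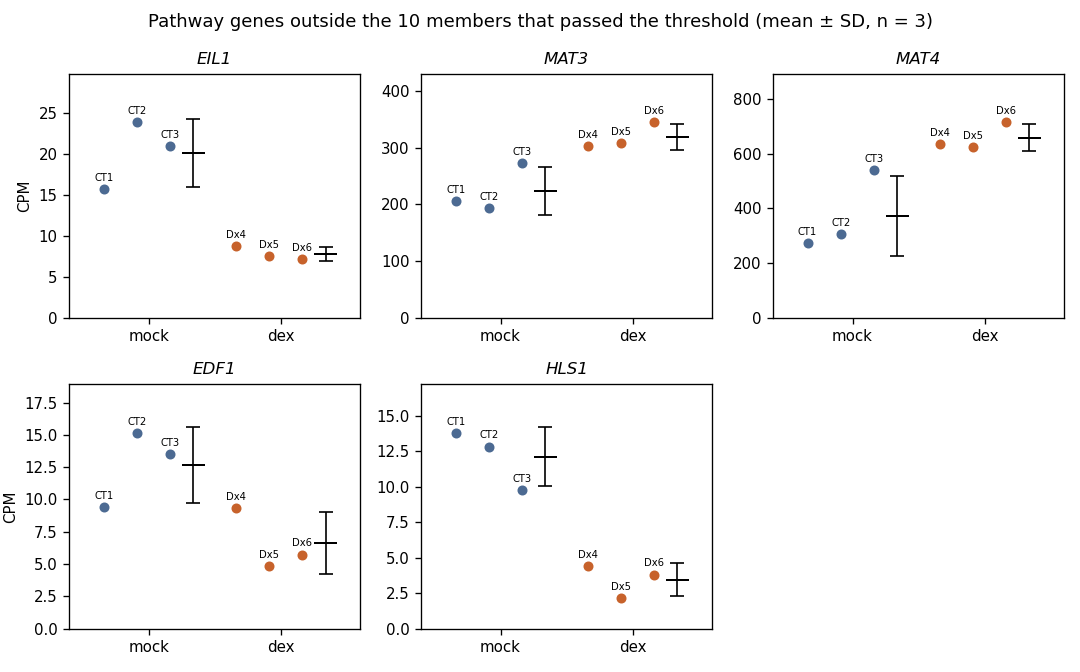
CPM (y axis, linear from 0) of the 5 pathway genes outside the 10 members that passed the threshold, by library, with mean and SD of 3 libraries as black bars. EIL1, EDF1 and HLS1 are lower and MAT3 and MAT4 higher with dexamethasone; EDF1 in Dx4 lies just under CT1.

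No gene of the remaining lists was called. Among 8 regulators of the receptors and of EIN2, 5 were tested: RAN1, the copper transporter that loads the receptors, had a mean of 66.7 ± 5.38 CPM in mock and 51.1 ± 5.21 CPM with dexamethasone (log2 fold change -0.38 ± 0.14, edgeR adjusted p = 0.0784), and ETP1, an F-box gene whose product targets EIN2, 33.8 ± 5.50 and 22.8 ± 4.15 CPM (-0.55 ± 0.19, adjusted p = 0.0574). ETP1 passed the threshold without CT3, and also with all 6 libraries and no filter beyond 1 count. Of 4 subunits of the SCF ubiquitin ligase that EBF1 and EBF2 join, CUL1 had a log2 fold change of -0.15 ± 0.12 and ASK1 of -0.02 ± 0.12. Of 7 genes for mRNA decay and poly(A) binding that are linked to EIN2, PAB2 had -0.05 ± 0.11 and PAB4 0.15 ± 0.14. Among 4 genes for the turnover of ACC synthase, EOL1 had 0.28 ± 0.13 and ETO1 0.21 ± 0.19. Of 22 ERF transcription factors 9 were tested, and the most abundant were RAP2.12 (0.10 ± 0.12), which shares 19.3% of its exon sequence with other genes, and RAP2.2 (-0.05 ± 0.12).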

How the data were processed

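The authors deposited a table of raw counts of reads per gene locus, which the name of the deposited table credits to HTSeq. Cufflinks, RSEM, Bowtie and TopHat appear, with neither version nor role, per the submitters' processing notes. No source used here names the genome build, annotation release or strand setting, so no coordinates are printed. Libraries were made with a stranded mRNA kit, per the labels' protocols. CT columns were taken as mock and Dx columns as dexamethasone. No column was tied to a single sample, and nothing says whether samples came from separate plants, so the p-values reflect only how far these samples vary, and that variation may be technical. Counts of the 28775 loci were filtered with filterByExpr (minimum count 10) and tested with edgeR 4.0.16 in R 4.3.3: TMM scaling, robust glmQLFit and two-sided glmQLFTest of dexamethasone against mock, with Benjamini-Hochberg adjustment over the 15857 genes tested and a threshold of 0.05. The standard error (SE) of a log2 fold change is its size divided by the square root of F, and intervals (95%) use the moderated degrees of freedom. CPM use TMM-scaled library sizes. Exon lengths, names and promoter windows came from RefSeq's annotation of TAIR10.1, which held 28009 of the 28775 loci, and shared exon sequence was counted in words of 50 bases. The procedure was tested on simulated data. The alternatives were DESeq2 1.42.0 (Wald test and size factors), limma 3.58.1 (voom), library size scaling, other filters (none beyond 1 count, and 5 CPM in at least 3 libraries) and leaving out each library. The members, the lists and the tests were chosen with earlier results of these data known. The text names all members, AP2 and EIL1, up to 6 called genes of each other list, and for a list with none the 2 most abundant; other genes were named after their values were seen. 1 gene of a list is not reported here and was left out of the list counts. Limits on a count of 0 cover counting error only.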

Additional observations from a re-analysis of the deposited data

How the results depend on the processing

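No paired analysis was possible because the numbers of the dexamethasone columns match no sample title. None of the 10 members was called under any of the 12 alternatives. Signs near 0 turned: CTR1 had -0.000681 with DESeq2 size factors and -0.0925 to 0.159 with 1 library left out, EBF2 0.0303 with limma-voom and -0.257 to 0.316, and EIN4 -0.0399 to 0.206. With 1 library left out, log2 ratio differences that turned lay between -0.0786 and 0.041 for ETR1 to ERS2, between -0.213 and 0.295 for ERS1 to ETR2 and between -0.0368 and 0.573 for ETR2 to EIN4; these alternatives were chosen after seeing the data. The DESeq2 Wald test called 549 genes higher and 815 lower, and 1 pathway gene higher, against 929, 1272 and 2. With 1 library left out, 441 to 1816 genes were higher and 668 to 1974 lower, and 0 to 6 pathway genes higher and 2 to 6 lower. On raw counts, subfamily 1 made up 55.1% of receptor counts in mock and 56.3% with dexamethasone. The causes were not tested. At these depths ETR2, with 13 to 23 counts, allows the least precise estimate.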
